A study of Homo sapiens with 8 samples.

Results

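The 10 genes described here encode transcription factors of the AP-1 and immediate early response, and they were chosen by name, with earlier results of these data known: the FOS family (FOS, FOSB, FOSL1, FOSL2), the JUN family (JUN, JUNB, JUND), ATF3, EGR1 and MYC. They are 10 of the 60230 genes in the deposited table, and each of them was among the 13404 genes that passed the filter on low counts and were tested. RNA was sequenced from 8 samples of CYP3A4-overexpressing HepG2 cells, with 2 replicates in each of 4 groups: DMSO control, compound 4, compound 5 and compound 6. HepG2 is a widely used human liver cancer cell line that keeps many hepatocyte traits, and every group, the control included, carried the CYP3A4 transgene, which encodes a cytochrome P450 enzyme that oxidizes many drugs and environmental chemicals. Control cells received 0.2% DMSO. Treated cells received a compound at its own half-maximal inhibitory concentration, so the doses differed between compounds, and all cells were harvested a day after treatment began. Compounds 4, 5 and 6 are phenolic antioxidants added to plastics. Compounds 4 and 6 are bisphenols joined by a methylene bridge and differ in one ring substituent, which is tert-butyl in compound 4 and cyclohexyl in compound 6. Compound 5 has an ethane bridge and carries tert-butyl where compounds 4 and 6 carry methyl. The study asked how such compounds change transcription in these cells. Gene positions are from GENCODE 29 on GRCh38. The labels name the replicates by day and do not say whether they came from separate cultures, so p-values measure the spread between these samples only.

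AP-1 is a dimeric transcription factor built from basic leucine zipper proteins. FOS proteins must pair with a JUN protein to bind DNA, whereas JUN proteins can also pair with each other or with members of the ATF family. Many of these genes are immediate early genes: growth factors, stress and DNA damage raise their transcription within minutes through MAP kinases, without new protein synthesis, and their transcripts are short-lived. In liver, AP-1 and MYC are best known from regeneration and from tumour growth.

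The promoters of the members show which of the classical control elements lie close to their start. RefSeq promoter sequences (GRCh38.p14) were at hand for 8 of the 10 genes, in 9 windows, and not for MYC and FOSL1. Each window was searched over the 250 bases before the start, on both strands, for the cAMP response element TGACGTCA, the AP-1 site TGANTCA, the CArG box bound by serum response factor, the EGR site GCGGGGGCG and the E-box CACGTG. A looser element, TGACNTCA, which includes the cAMP response element, was added after the windows had been read. 4 sequences are given, in lower case with the matches in capitals, from 5′ to 3′ on the strand of the gene: EGR1 because it had the highest change of the 10 genes with each compound, JUN and ATF3 because both hold the same looser element, and JUND because it alone holds the full element.
EGR1: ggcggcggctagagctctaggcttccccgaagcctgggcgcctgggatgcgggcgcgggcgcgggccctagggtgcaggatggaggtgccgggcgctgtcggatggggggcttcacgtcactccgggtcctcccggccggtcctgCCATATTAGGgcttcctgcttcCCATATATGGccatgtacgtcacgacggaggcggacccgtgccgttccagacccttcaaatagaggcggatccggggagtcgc
ATF3: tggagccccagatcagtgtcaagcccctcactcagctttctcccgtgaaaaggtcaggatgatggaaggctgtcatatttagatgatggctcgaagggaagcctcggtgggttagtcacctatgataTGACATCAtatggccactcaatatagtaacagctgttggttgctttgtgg
JUND: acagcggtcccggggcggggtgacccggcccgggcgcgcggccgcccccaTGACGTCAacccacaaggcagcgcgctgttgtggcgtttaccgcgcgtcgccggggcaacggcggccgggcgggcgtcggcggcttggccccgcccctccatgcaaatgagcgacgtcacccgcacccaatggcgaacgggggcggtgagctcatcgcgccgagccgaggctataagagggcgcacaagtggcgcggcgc
JUN: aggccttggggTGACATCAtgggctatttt

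The EGR1 sequence is chr5:138465229-138465478 on the plus strand and ends at the base before the RefSeq start. It holds 2 CArG boxes, CCATATTAGG at -105 to -96 and CCATATATGG at -83 to -74, where positions count from the start. A CArG box was present in 1.159% of the 35116 promoter windows. The ATF3 sequence, chr1:212565157-212565333 on the plus strand, holds TGACATCA at -123 to -116. The JUN stretch, chr1:58784096-58784125 on the minus strand, holds the same 8 letters at -67 to -60. The ATF3 and JUN sequences are cut to 177 and 30 bases because GENCODE 29 starts both genes further upstream than RefSeq. The ATF3 sequence ends at the base before the GENCODE start, and the JUN stretch lies in what GENCODE 29 gives as the 5′ untranslated region. The looser element was present in 6.87% of all windows. The JUND sequence, chr19:18281623-18281872 on the minus strand, holds TGACGTCA at -200 to -193, an element found in 1.65% of windows. The windows of FOS, FOSB, FOSL2 and JUNB held none of these letters. AP-1 sites, EGR sites and E-boxes were present in 6.57%, 4.72% and 6.34% of all windows and in none of the members' windows. These matches are descriptions of letters and not evidence of binding.

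Under compound 5, 8 of the 10 genes rose against DMSO, by 1.76-fold (MYC) to 17.2-fold (EGR1), and FOSL2 and JUND did not pass the test. Under compound 4, EGR1 rose 4.37-fold and JUNB 1.58-fold. Under compound 6, EGR1 rose 5.79-fold and no other member passed. None of the 10 was called lower in this fit. Genes were called at an adjusted p under 0.05 (edgeR quasi-likelihood test, Benjamini-Hochberg adjustment over all 13404 genes). Across all genes tested, compound 5 raised 13.9% and lowered 14.2%, compound 4 raised 6.5% and lowered 5.42%, and compound 6 raised 2.8% and lowered 1.6%. The median log2 fold change of the 10 genes was 1.15 under compound 5, 0.25 under compound 4 and 0.10 under compound 6, against -0.03, 9.9e-05 and 0.0028 over all genes tested. The 3 comparisons use the same 2 DMSO samples, so their values are given side by side and are not independent of each other. In bulk RNA, more transcript per cell and more cells that express a gene cannot be told apart.

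**Figure D1:**
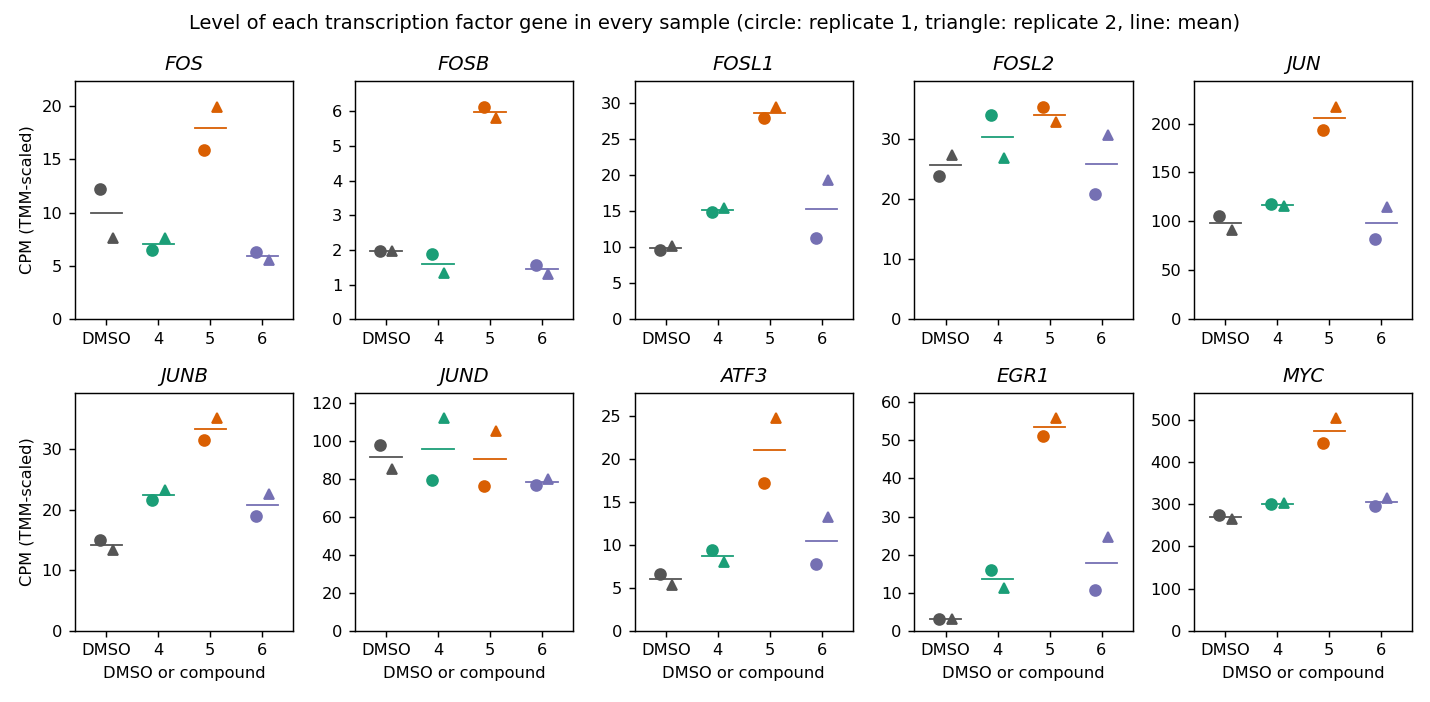
Level of each of the 10 genes in CPM (linear axes from 0, TMM-scaled) in every sample of DMSO and compounds 4, 5 and 6. Circles are replicate 1, triangles replicate 2 and lines the mean of 2 replicates. Both compound 5 samples lie above both DMSO samples for every gene but JUND. The share of all genes tested with that order was not counted, so it is a description only.

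FOS (ENSG00000170345, chr14:75278774-75282230, plus strand), the founding member of its family and the classical partner of JUN, was measured at 12.2 and 7.64 CPM in the DMSO samples (replicate 1, then replicate 2, as for all genes; CPM is a gene's reads scaled to a common library total). It stood at 15.9 and 19.9 CPM under compound 5, at 6.50 and 7.57 CPM under compound 4 and at 6.26 and 5.52 CPM under compound 6. Both compound 5 samples lay above both controls, and all 4 samples of compounds 4 and 6 lay below both. FOS rose under compound 5 by 0.86 ± 0.22 on the log2 scale (estimate ± SE throughout, adjusted p = 0.0144). The log2 fold changes of -0.48 ± 0.23 under compound 4 (adjusted p = 0.217) and -0.75 ± 0.24 under compound 6 (adjusted p = 0.112) did not pass the test. The DMSO replicates of FOS were 1.60-fold apart, the widest gap of any member within the control. Without DMSO replicate 2 the compound 5 call was lost (0.58, adjusted p = 0.110), as it was without compound 5 replicate 2 (0.69, adjusted p = 0.111).

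FOSB (ENSG00000125740, chr19:45467995-45475179, plus strand), a FOS relative that also exists as a truncated, long-lived form in brain, was the scarcest of the 10, with 15 to 74 counts per library. Its DMSO samples stood at 1.97 and 1.97 CPM and its compound 5 samples at 6.14 and 5.81 CPM. Under compound 4 it stood at 1.88 and 1.33 CPM and under compound 6 at 1.56 and 1.32 CPM. The compound 5 samples stood apart from the other 6, which lay close together. FOSB rose 3.02-fold under compound 5 (log2 1.59 ± 0.29, adjusted p = 0.00288). Its values under compound 4 (-0.30 ± 0.33, adjusted p = 0.600) and compound 6 (-0.46 ± 0.34, adjusted p = 0.501) did not pass.

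FOSL1 (ENSG00000175592, chr11:65892049-65900573, minus strand) encodes FRA-1, a FOS relative without a strong activation domain that is often raised in carcinoma cells. Its level was 9.55 and 10.1 CPM under DMSO, 14.9 and 15.4 CPM under compound 4, 27.9 and 29.5 CPM under compound 5, and 11.3 and 19.4 CPM under compound 6. All 6 treated samples lay above both controls, and the compound 6 replicates were far apart. FOSL1 rose under compound 5 by 1.54 ± 0.21 on the log2 scale (adjusted p = 0.000673). The log2 fold changes of 0.62 ± 0.22 under compound 4 (adjusted p = 0.0927) and 0.65 ± 0.22 under compound 6 (adjusted p = 0.122) did not pass. Without compound 6 replicate 1 the latter was 1.00 (adjusted p = 0.00705), and without replicate 2 it was 0.20 (adjusted p = 0.777). The compound 4 value passed in 4 other fits, among them the fit of compound 4 and DMSO alone (adjusted p = 0.0402) and the fit without the filter on low counts (adjusted p = 0.0106). Of the 31-base words in FOSL1 transcripts, 6.86% also occur in the transcripts of its processed copy FOSL1P1, so part of its reads could be assigned to either.

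FOSL2 (ENSG00000075426, chr2:28392448-28417312, plus strand), which encodes FRA-2, had the smallest log2 fold changes of the FOS family. It stood at 23.9 and 27.4 CPM under DMSO, 34.0 and 26.8 CPM under compound 4, 35.5 and 32.8 CPM under compound 5, and 21.0 and 30.7 CPM under compound 6. Only the compound 5 samples lay clear of both controls. The log2 fold change was 0.41 with a 95% confidence interval of 0.00427 to 0.82 under compound 5 (adjusted p = 0.117), 0.24 ± 0.18 under compound 4 (adjusted p = 0.438) and 0.02 ± 0.19 under compound 6 (adjusted p = 0.975). The compound 5 value passed in the fit of compound 5 and DMSO alone (adjusted p = 0.0161) and without the filter on low counts (adjusted p = 0.0302).

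JUN (ENSG00000177606, chr1:58780788-58784327, minus strand), the central AP-1 subunit and a target of JNK, was measured at 106 and 90.8 CPM under DMSO, 118 and 116 CPM under compound 4, 194 and 217 CPM under compound 5, and 81.7 and 115 CPM under compound 6. The compound 5 samples stood well above all others, and the compound 6 samples lay on either side of the controls. JUN rose 2.09-fold under compound 5 (log2 1.07 ± 0.15, adjusted p = 0.000818). Its log2 fold change was 0.25 ± 0.15 under compound 4 (adjusted p = 0.321). Under compound 6 it was 0.00291, with a 95% confidence interval of -0.33 to 0.34.

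JUNB (ENSG00000171223, chr19:12791496-12793315, plus strand), a weaker activator that can counter JUN, was the member other than EGR1 that passed under compound 4. Its level was 15.06 and 13.31 CPM under DMSO, 21.5 and 23.2 CPM under compound 4, 31.5 and 35.1 CPM under compound 5, and 18.9 and 22.6 CPM under compound 6. Every treated sample lay above both controls. JUNB rose by 0.66 ± 0.15 on the log2 scale under compound 4 (adjusted p = 0.0158) and by 1.23 ± 0.14 under compound 5 (adjusted p = 0.000312). It stood at 0.56 ± 0.15 under compound 6 (adjusted p = 0.0618). That compound 6 value passed without the filter on low counts (adjusted p = 0.0230) and ran from 0.42 to 0.70 without single libraries. The compound 4 call was lost without DMSO replicate 1 (adjusted p = 0.0548) or DMSO replicate 2 (adjusted p = 0.151). An exon of JUNB overlaps one of HOOK2 on the opposite strand (GRCh38, GENCODE 29). With both strands searched, 12.8% of the 31-base words of JUNB match HOOK2 transcripts. The kit used for the libraries keeps the strand of the RNA, so matches on opposite strands need not mean shared reads. HOOK2, a microtubule-binding linker protein, fell by 0.44 ± 0.14 on the log2 scale under compound 5 (adjusted p = 0.0400). The part of shared reads in these values was not tested.

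JUND (ENSG00000130522, chr19:18279760-18281622, minus strand), the JUN family member known for steady expression in resting cells, gave no call. It stood at 97.7 and 85.0 CPM under DMSO, 79.5 and 112 CPM under compound 4, 76.3 and 105 CPM under compound 5, and 77.1 and 79.9 CPM under compound 6. The groups of compounds 4 and 5 overlapped the control, with wide gaps between their replicates. Under compound 5 its log2 fold change was -0.00751, with a 95% confidence interval of -0.40 to 0.39. The values were 0.07 ± 0.18 under compound 4 (adjusted p = 0.842) and -0.22 ± 0.18 under compound 6 (adjusted p = 0.557).

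ATF3 (ENSG00000162772, chr1:212565334-212620777, plus strand), a stress-induced member of the ATF family that pairs with JUN proteins, was measured at 6.60 and 5.34 CPM under DMSO, 9.41 and 7.96 CPM under compound 4, 17.2 and 24.7 CPM under compound 5, and 7.72 and 13.26 CPM under compound 6. All treated samples lay above both controls. ATF3 rose 3.54-fold under compound 5 (log2 1.82 ± 0.27, adjusted p = 0.000925). The values of 0.54 ± 0.28 under compound 4 (adjusted p = 0.251) and 0.84 ± 0.28 under compound 6 (adjusted p = 0.121) did not pass. Without compound 6 replicate 1, the lower of that pair, the compound 6 value was 1.18 and passed (adjusted p = 0.0279), and without replicate 2 it was 0.39 (adjusted p = 0.734).

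EGR1 (ENSG00000120738, chr5:138465490-138469315, plus strand) is a zinc finger factor outside the AP-1 family, induced through serum response factor and its partners, and it was the member that rose with all 3 compounds. Its level was 3.05 and 3.12 CPM under DMSO (mean 3.09 ± 0.0503 SD, n = 2). It was 15.9 and 11.2 CPM under compound 4 (13.6 ± 3.30), 51.1 and 55.8 CPM under compound 5 (53.4 ± 3.37) and 10.7 and 24.6 CPM under compound 6 (17.7 ± 9.82). All treated samples lay well above the controls, and the compound 6 replicates were 2.29-fold apart, the widest gap of any member in any group. EGR1 rose by 2.13 ± 0.38 on the log2 scale under compound 4 (adjusted p = 0.00549), 4.11 ± 0.35 under compound 5 (adjusted p = 9.16e-05) and 2.53 ± 0.37 under compound 6 (adjusted p = 0.00671). In the order of log2 fold changes over all genes tested it stood at place 71, 25 and 38 from the top. Without DMSO replicate 1 the compound 6 call was lost (2.52, adjusted p = 0.0621), and without DMSO replicate 2 the calls for compound 4 (2.15, adjusted p = 0.0655) and compound 6 (2.55, adjusted p = 0.102) were lost. The compound 6 value was 3.02 without compound 6 replicate 1 and 1.80 without replicate 2, and passed in both (adjusted p = 0.000277 and 0.0347).

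MYC (ENSG00000136997), which encodes a basic helix-loop-helix leucine zipper factor that drives growth and ribosome production, was the most abundant of the 10. It stood at 274 and 265 CPM under DMSO, 300.3 and 302 CPM under compound 4, 445 and 504 CPM under compound 5, and 296 and 316 CPM under compound 6. All treated samples lay above the controls, those of compounds 4 and 6 by little. MYC rose 1.76-fold under compound 5 (log2 0.82 ± 0.10, adjusted p = 0.000408). The values of 0.16 ± 0.10 under compound 4 (adjusted p = 0.348) and 0.18 ± 0.10 under compound 6 (adjusted p = 0.352) did not pass.

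**Figure D2:**
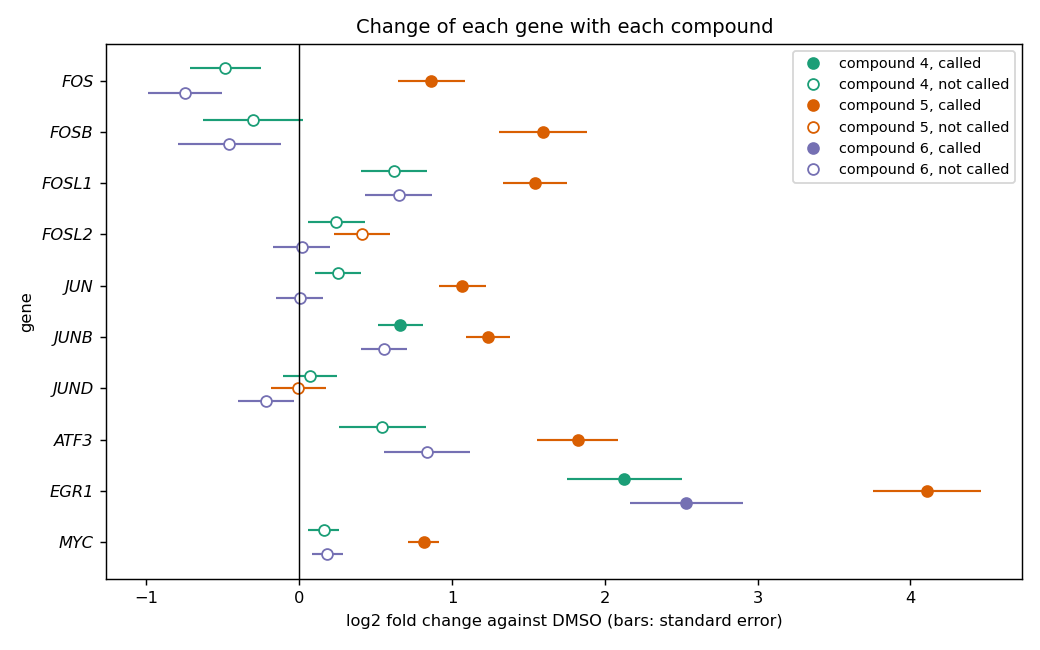
Log2 fold change of each of the 10 genes against DMSO (horizontal axis) under compounds 4, 5 and 6, where points are edgeR estimates and bars their standard errors. Filled points were called at an adjusted p under 0.05 and open points were not. The compound 5 point lies furthest to the right for 9 genes, and the exception is JUND.

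Replicate gaps among the 10 genes were uneven. Under compound 6, 3 members (EGR1, FOSL1 and ATF3) were over 1.5-fold apart, against 1 (FOS) with DMSO and 0 with compounds 4 and 5. Replicate 2 was the higher for 8 members in compound 6 and likewise in compound 5, for 5 in compound 4 and for 4 in DMSO. Without compound 6 replicate 1, 4 members passed against DMSO (FOSL1, JUNB, ATF3 and EGR1) in place of 1. Without the filter on low counts, 5 passed, namely FOSL1, JUNB, ATF3 and EGR1 upward and FOS downward (-0.74, adjusted p = 0.0108). For compound 5 the count was 7 or 8 whichever library was left out, and 9, with FOSL2, without the filter or in the fit of 2 groups.

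The compounds were next compared with each other, over 3 pairs. Each was given at its own dose, so compound and dose cannot be told apart in these differences. FOS, FOSB, FOSL1, JUN, JUNB, ATF3, EGR1 and MYC were all higher under compound 5 than under compound 4, and likewise higher than under compound 6, which makes 8 of 10 called in both. Across all genes tested 6.91% were called higher under compound 5 than under compound 4 and 4.76% higher than under compound 6. The pairs share the compound 5 samples and are not independent.

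Against compound 4, the difference on the log2 scale was widest for EGR1 at 1.98 (95% confidence interval 1.34 to 2.62, adjusted p = 0.00543) and FOSB at 1.90 (1.25 to 2.54, adjusted p = 0.00645). It was 1.35 for FOS (0.85 to 1.84, adjusted p = 0.00778) and narrowest among those called for JUNB at 0.57 (0.27 to 0.88, adjusted p = 0.0254). Against compound 6, FOSB led with 2.05 (1.38 to 2.72, adjusted p = 0.00446), followed by FOS with 1.61 (1.10 to 2.12, adjusted p = 0.00420) and EGR1 with 1.58 (0.95 to 2.20, adjusted p = 0.00951). FOS and FOSB were thus the members for which compound 5 stood above DMSO while the estimates for compounds 4 and 6 lay below it. FOSL2 was not called in either comparison, with differences of 0.17 (-0.23 to 0.57) and 0.39 (-0.01 to 0.80). JUND was not called either, at -0.08 (-0.47 to 0.32) and 0.21 (-0.19 to 0.61). Without compound 5 replicate 2 the calls fell from 8 to 2 against compound 4 (FOSB and EGR1) and to 3 against compound 6. Without compound 5 replicate 1 they fell to 4 and 4, without compound 4 replicate 2 to 5 against compound 4, and without compound 6 replicate 1 to 4 against compound 6, with no change of direction in the 8 genes.

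Compounds 4 and 6, which differ in tert-butyl against cyclohexyl, gave no call among the 10 genes by edgeR, and none had an unadjusted p under 0.05. Over all genes, 0.0448% (6 genes) were called between them in either direction, and 1315 genes had an unadjusted p under 0.05. A p that misses the threshold does not show that the compounds act alike. The intervals of the difference, compound 4 minus compound 6, still allowed -1.07 to 0.26 on the log2 scale for EGR1, -0.88 to 0.29 for ATF3, -0.60 to 0.92 for FOSB and -0.29 to 0.81 for FOS. They were narrowest for MYC, at -0.25 to 0.20.

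**Figure D3:**
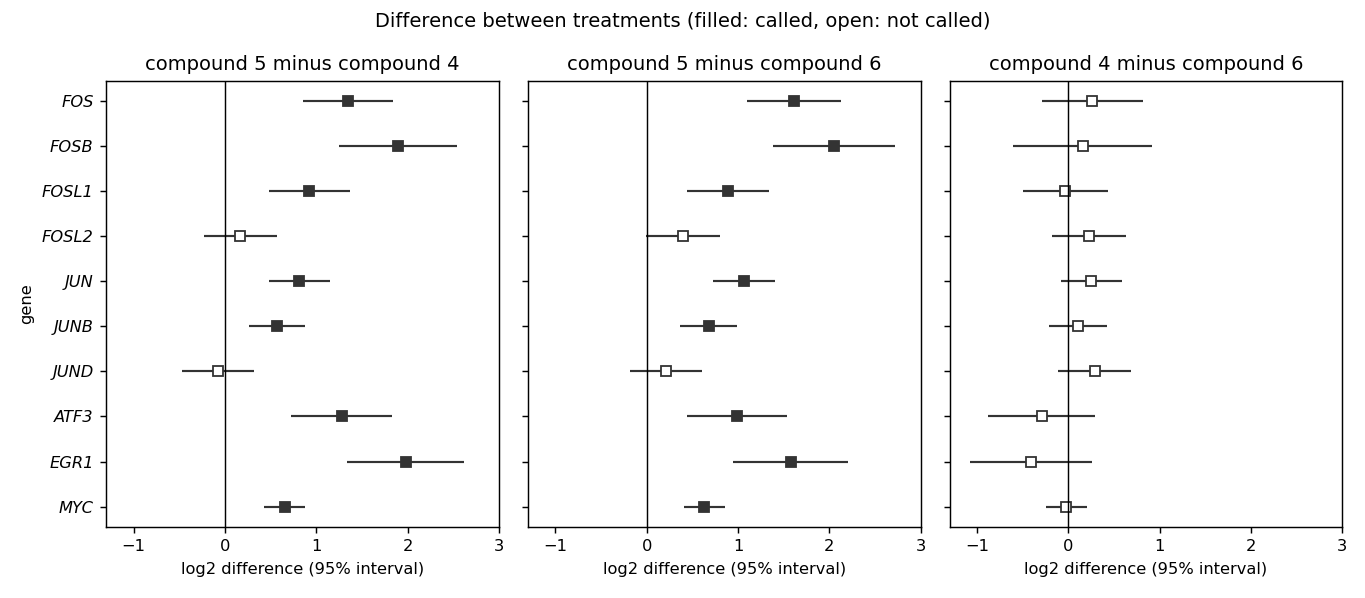
Log2 difference between treatments for each gene (points, edgeR) with its 95% confidence interval (lines), for compound 5 minus compound 4, compound 5 minus compound 6 and compound 4 minus compound 6. Filled squares were called. In each of the first 2 panels 8 genes were called, all to the right of 0, and in the third every interval crosses 0.

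Levels were compared between genes per kilobase of the longest coding transcript in GENCODE 29, since longer transcripts yield more reads. In the DMSO samples MYC led with 116 and 112 CPM per kb, followed by JUND (52.4 and 45.6), JUN (29.8 and 25.7), JUNB (8.28 and 7.32), FOSL1 (5.72 and 6.06), FOS (5.66 and 3.54), FOSL2 (3.57 and 4.08), ATF3 (3.24 and 2.63), EGR1 (0.973 and 0.995) and FOSB (0.522 and 0.523). FOS and FOSL2 overlapped in that order, and FOSL1 and FOS nearly met. Under compound 5 EGR1 reached 16.3 and 17.8 CPM per kb, close to FOSL1 at 16.7 and 17.7 and to JUNB at 17.3 and 19.3.

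The summed level of the FOS family was 15.5 and 14.2 CPM per kb under DMSO, 17.5 and 17.1 under compound 4, 30.96 and 33.36 under compound 5, and 13.2 and 19.1 under compound 6. The JUN family summed to 90.5 and 78.6 CPM per kb under DMSO, 87.9 and 106 under compound 4, 113 and 137 under compound 5, and 74.8 and 87.7 under compound 6. JUN family transcripts thus outnumbered FOS family transcripts in every sample. The ratio of the FOS family to the JUN family was 0.171 and 0.181 under DMSO and 0.274 and 0.243 under compound 5. It was 0.199 and 0.161 under compound 4 and 0.176 and 0.218 under compound 6. The compound 5 samples held the highest ratios.

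The make-up within each family also differed. FOSL1 held 37.0% and 42.7% of the FOS family sum under DMSO, 50.9% and 54.0% under compound 4, 53.9% and 53.0% under compound 5, and 51.2% and 60.8% under compound 6. All 6 treated samples lay above both controls in this share. JUND held 57.90% and 58.05% of the JUN family sum under DMSO and 36.3% and 41.1% under compound 5. JUN held 33.0% and 32.6% under DMSO and 48.4% and 44.8% under compound 5, so that JUN and JUND changed places as the leading JUN family transcript. Under compounds 4 and 6 JUND remained the leading transcript, at 48.6% to 56.9%. These shares were not tested, and they depend on the transcript length taken for each gene.

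**Figure D4:**
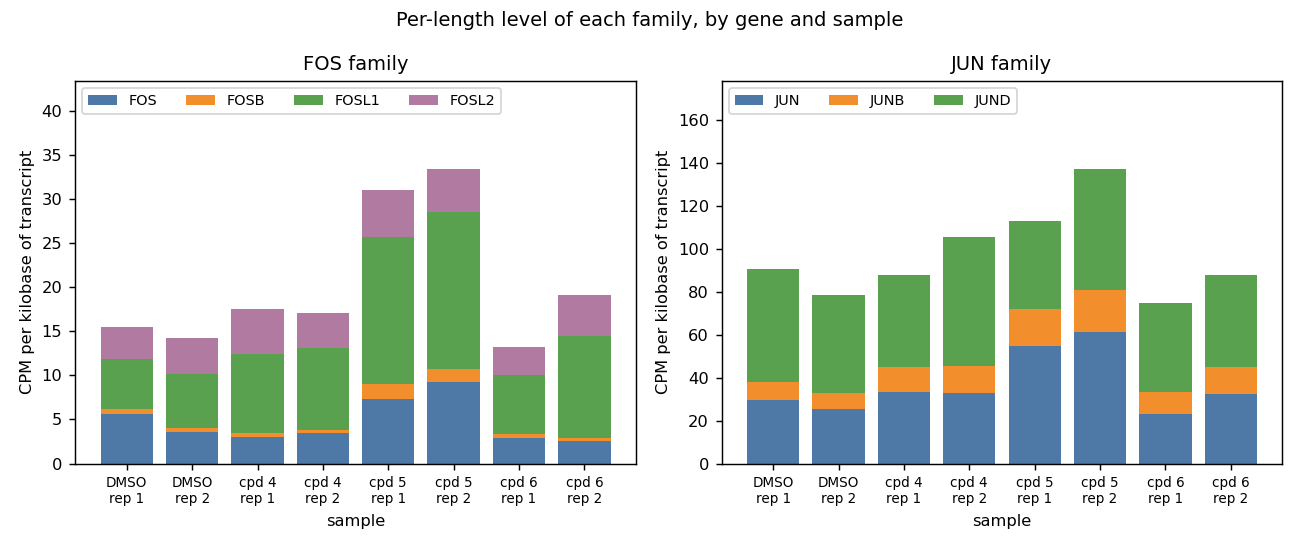
Stacked bars of the per-length level (CPM per kilobase of transcript, axes from 0) of the FOS family (left) and the JUN family (right) in each of the 8 samples, coloured by gene. The compound 5 bars are the tallest in both panels, with the FOSL1 segment the largest of the FOS family and the JUN segment larger than that of JUND.

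Other genes of the same circuits were described from 7 lists, with named genes chosen as the called genes with the most extreme log2 fold changes. The lists were drawn up with earlier results of these data known, and the counts read against the shares of all genes given above. Changes of list genes are log2 fold changes unless written as a fold. Of 21 tested basic leucine zipper genes that can pair with or compete with AP-1, 12 rose and 2 fell under compound 5 (median log2 fold change 0.84), 7 rose and 1 fell under compound 4 (0.24), and 4 rose and 0 fell under compound 6 (0.46). DDIT3, which encodes the stress factor CHOP, stood at 10.3 and 6.25 CPM under DMSO and 56.7 and 56.9 CPM under compound 5 (log2 2.79 ± 0.26, adjusted p = 0.000109). DDIT3 also rose 2.46-fold under compound 4 (adjusted p = 0.0118). Under compound 6 DDIT3 rose by 1.24 ± 0.27 (adjusted p = 0.0318), a call that missed the threshold with the replicate number as a block (adjusted p = 0.0507). MAFK, a small MAF protein, rose by 1.09, 2.16 and 0.71 with compounds 4, 5 and 6, the last again not with the block (adjusted p = 0.0576). BATF (1.90) and BACH2 (1.32), AP-1 relatives best known from lymphocytes, led with compound 4 and were also called with compound 5 (1.89 and 1.79). NFE2, a blood cell factor of low level here, fell by 1.38 under compound 4 (with the block, adjusted p = 0.0502) and by 1.64 under compound 5, and NFE2L1 fell by 0.56 under compound 5. Both strands of other genes' transcripts were searched for the 31-base words of list genes. Shared words made up 28.9% of those of DDIT3, 17.8% of MAFK, 24.8% of IER3 and 21.4% of MLX. They were most often shared with MARS, TMEM184A, IER3-AS1 and PSMC3IP. The kit used for the libraries keeps the strand of the RNA, so matches on opposite strands need not mean shared reads. The part of shared reads in these 4 list genes was not tested.

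The list of other immediate early genes held 39, of which 31 were tested. Of these, 20 rose and 2 fell under compound 5 (median 0.92). Under compound 4, 14 rose and 0 fell (0.44), and under compound 6, 2 rose and 0 fell (0.35). PPP1R15A, which encodes a phosphatase subunit that restores translation after stress, was at 29.6 and 25.9 CPM under DMSO and at 168 and 199 CPM under compound 5 (log2 2.73 ± 0.27, adjusted p = 0.000152). PPP1R15A also rose by 0.99 with compound 4. EGR4, a close relative of EGR1, rose by 1.38 with compound 4 and 2.63 with compound 5. The relatives EGR2 and EGR3, with at most 3 and 1 counts in any library, did not pass the low-count filter. KLF4 (1.66) and EDN1 (1.58), which encodes endothelin, led with compound 4 and were also called with compound 5 (1.94 and 0.98). The 2 that rose under compound 6 were TRIB1 (0.93) and IER3 (0.86), which rose by 0.97 and 1.01 under compound 4 and by 1.14 and 2.12 under compound 5. SGK1 and BTG2 fell under compound 5, by 1.05 and 0.75 on the log2 scale.

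The next list held kinases and ternary complex factors that act upstream of FOS, JUN and EGR1. Of 30 tested, 11 rose and 2 fell under compound 5 (median 0.35), 6 rose and 0 fell under compound 4 (0.07), and 3 rose and 0 fell under compound 6 (0.08). ELK3, a ternary complex factor that works with serum response factor, rose by 0.81, 1.01 and 0.77 under compounds 4, 5 and 6, the last not with the block (adjusted p = 0.0518). MAPK13, a p38 kinase, rose by 0.73, 0.54 and 0.59 with compounds 4, 5 and 6, and MAPKAPK2, a kinase downstream of p38, by 0.72, 0.79 and 0.51. MAPK3 (ERK1) and MAPK14 (p38 alpha) fell by 0.61 and 0.36 under compound 5. Transcript levels do not measure the activity of these kinases.

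The list of genes known as AP-1 targets held 25, of which 16 were tested. MMP1, MMP9, MMP10, MMP13, PLAU, IL6, CCL2, CD44 and TNC did not pass the low-count filter, with at most 6 counts in any library. Of the 16 tested, 10 rose under compound 5, 5 under compound 4 and 6 under compound 6, and 0 fell. Their medians were 0.99, 0.86 and 0.99. CXCL8, the chemokine interleukin-8, stood at 0.394 and 0.575 CPM under DMSO, a few reads above the limit of 3 counts, and at 9.62 and 15.3 CPM under compound 5 (log2 4.64 ± 0.42, adjusted p = 9.83e-05). AREG and EREG encode ligands of the epidermal growth factor receptor. AREG rose by 3.48 under compound 5 and 2.09 under compound 6, and EREG by 1.49, 2.76 and 2.09 with compounds 4, 5 and 6. MMP7, a matrix protease, is among the 5 called under compound 4 (log2 2.13, with the block adjusted p = 0.0510), but its counts were 6 and 5 under DMSO, 24 and 30 under compound 4, 6 and 1 under compound 5 and 8 and 15 under compound 6, so that it passed the low-count filter largely through the group where it is high.

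Genes around MYC and EGR1 were also counted. Of 14 tested partners and regulators of MYC, 6 rose under compound 5, 2 under compound 4 and 1 under compound 6. Of these 14, 0 fell (medians 0.25, 0.11 and 0.14). PIM1, a kinase that cooperates with MYC, rose by 1.13, 1.76 and 0.86 under compounds 4, 5 and 6, and MXD1, a MAX partner that opposes MYC, rose by 2.29 under compound 5. MLX rose by 0.47 with compound 4 and 0.74 with compound 5. Of 21 tested MYC target genes, 3 rose and 1 fell under compound 5, and 0 were called under compounds 4 and 6. Their medians were 0.03, -0.02 and -0.06. The part that rose under compound 5 is close to the 13.9% called higher over all genes tested. POLR1B (0.49) and WDR43 (0.42), both of ribosome production, were among those that rose, and LDHA, a glycolytic enzyme, fell by 0.61. Of 5 tested corepressors and targets of EGR1, 2 rose under compound 5 and 1 each under compounds 4 and 6. Of these 5, 0 fell (medians 0.53, 0.36 and 0.31). NAB2, a corepressor that EGR1 itself induces, rose by 0.83 under compound 5, and TGFB1 rose by 0.81, 0.83 and 0.63 under compounds 4, 5 and 6.

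The calls of the list genes held to different degrees when 1 library was left out. With compound 5, 20 of the 30 calls given above for list genes held in each such fit, among them those of DDIT3, MAFK, PPP1R15A, EGR4, CXCL8, AREG, EREG, MXD1, PIM1, NAB2 and TGFB1. The other 10 were lost in at least 1 fit (NFE2, NFE2L1, SGK1, EDN1, MAPK3, MAPK13, MAPK14, POLR1B, WDR43 and LDHA, adjusted p up to 0.225). With compound 4, 6 of 19 held (MAFK, EDN1, IER3, TRIB1, MAPKAPK2 and PIM1). Of the other 13, all were lost without DMSO replicate 2 (adjusted p 0.0520 to 0.294) and 8 without DMSO replicate 1, against 4 and 5 without compound 4 replicates 1 and 2 and 4 without either compound 5 library. With compound 6, 0 of 11 held: all were lost without DMSO replicate 2 (adjusted p 0.0878 to 0.256), 9 without DMSO replicate 1, 9 without compound 6 replicate 2, and 4 and 5 without compound 5 replicates 1 and 2. Sizes moved by over 1.5-fold for AREG and EREG with compound 6, which stood at 0.96 and 1.46 on the log2 scale without its replicate 2. Some calls were also lost with all libraries in. DESeq2 did not call NFE2 (adjusted p = 0.112), PPP1R15A (0.0756) or EGR4 (0.0987) for compound 4, nor ELK3 for compound 6 (0.0638). The fit of 2 groups lost EGR4 (0.0603) and MLX (0.0514) for compound 4, library-size scaling lost MLX for compound 4 (0.0515) and MAFK for compound 6 (0.0504), and the fit without the filter lost MAPK14 for compound 5 (0.0629).

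Library totals ran from 9472261 to 13308975 counts, so 3 counts correspond to 0.234 to 0.313 CPM. Mitochondrial genes took 4.91% and 5.12% under DMSO, 5.46% and 5.31% under compound 4, 6.15% and 5.87% under compound 5, and 5.58% and 6.21% under compound 6. This share was above both controls in every treated sample, and its part in the members' values was not tested. All 12 hepatocyte markers were detected, with a summed level of 40781 to 42804 CPM under DMSO, 32594 to 33064 under compound 4, 34240 to 34407 under compound 5 and 33063 to 39430 under compound 6, below the control in every treated sample. Singly, 2 were called higher and 3 lower under compound 4, whereas 3 were called lower under compound 5, 2 lower under compound 6 and 0 higher under either. Their part in the members' values was not tested. Of the fibroblast and stellate, endothelial and leukocyte markers, COL1A2, DCN, LUM, KDR, TEK, PTPRC, CD3E and ITGAM were at 0 in all libraries. LYZ, a leukocyte marker, had 22088 to 31275 counts. The summed leukocyte markers ran from 2413 to 3035 CPM under DMSO and from 1892 to 2066 CPM under compound 5, and the fibroblast and stellate sum from 17.5 to 21.6 CPM under DMSO and from 10.7 to 11.6 CPM under compound 5. Under compounds 4 and 6 these sums were 2140 to 2501 and 2228 to 2700 CPM, and 18.7 to 22.1 and 18.3 to 19.8 CPM. Most of the leukocyte sum was LYZ. Singly, of 4 tested leukocyte markers 2 were called higher under compound 4 (CD14 and CD68). Of the same 4, 1 was called higher under compound 6 (CD14) and 1 lower under compound 5 (LYZ). CD14 had only 1 to 16 counts per library, close to the low-count filter, so its calls rest on few reads. Of 2 tested fibroblast and stellate markers, PDGFRB was called higher under compound 4 and ACTA2 lower under compound 5. The part of these genes in the members' values was not tested. The endothelial sum was at most 2.06 CPM in any sample.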

How the data were processed

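mRNA libraries (NEBNext Ultra II Directional kit) from 8 samples were sequenced from both ends. The authors quantified reads with Salmon 1.5.0 (GENCODE transcripts, GRCh38) and deposited estimated counts per gene as whole numbers. FastQC 0.12.0 and DESeq2 1.38.3 are named in the submitters' processing notes. Here the expected counts were taken as deposited, filtered with filterByExpr (13404 genes kept) and scaled by TMM (factors 0.958 to 1.04). They were fitted over all 4 groups with the quasi-likelihood test of edgeR 4.0.16 in R 4.3.3, with Benjamini-Hochberg adjustment. SE is the log2 fold change divided by the root of F. The script was tested on simulated data.

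The 10 members and all lists were chosen with earlier results of these data known. Named list genes were the 2 highest and 2 lowest called genes per list and compound with a mean of at least 1 CPM.

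Replicate numbers are the days in the sample titles, which pair the samples across groups. The differences between replicates correlated between groups with r from -0.14 to 0.27 across genes, which are not independent replicates (log2 of CPM + 1). The replicates of every group differed beyond counting noise (chi-square per degree of freedom 5.70 to 18.0). The column names mark replicate 1 of compounds 4 and 5 as merged from 2 parts. Alternatives were RLE, upper-quartile and library-size scaling, DESeq2 1.42.0, other filters, a replicate block, fits of 2 groups, a stricter threshold of 0.01, and leaving out each library. RefSeq sequences were matched by symbol.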

Additional observations from a re-analysis of the deposited data

How the results depend on the processing

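The calls of the 10 genes were the same under RLE, upper-quartile and library-size scaling, DESeq2, a minimum of 10 counts in every sample and the replicate block. With the replicate number as a block, 1549, 3676 and 499 genes were called for compounds 4, 5 and 6 against DMSO, 1636 and 1224 for compound 5 against compounds 4 and 6, and 6 for compound 4 against 6. The block lost the 5 calls named above among the list genes and changed no other call of a named gene. Without the filter on low counts, 5 members were called for compound 6, and 1441 genes in all, 2812 and 2117 for compound 5 against compounds 4 and 6, and 294 for compound 4 against 6. DESeq2 called 72 genes for that last pair. Fits of the 2 groups alone called 897 genes for compound 5 against 4 and 2 for compound 4 against 6. At an adjusted p under 0.01, 1 member remained called for compound 4, and 4 and 5 for compound 5 against compounds 4 and 6. The counts over all genes were then 591, 1809 and 92 against DMSO and 279, 282 and 1 between compounds. The causes were not tested.

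Leaving out a library, with the lone sample assumed to vary like the other groups, gave 0 to 3 members called for compound 4, 7 to 8 for compound 5 and 0 to 4 for compound 6. It gave 2 to 8 for compound 5 against 4, 3 to 8 for compound 5 against 6 and 0 to 0 for compound 4 against 6. Over all genes it gave 335 to 1703, 1680 to 4519 and 1 to 1096 against DMSO, and 111 to 2709, 143 to 1875 and 0 to 117 between compounds. Without DMSO replicate 2, 335 genes were called for compound 4 and 1 for compound 6. Without compound 5 replicate 1, 111 and 143 were called for compound 5 against compounds 4 and 6.

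Log2 values that changed sign were all uncalled. JUND with compound 5 stood at 0.0148 under RLE scaling, 0.0139 under DESeq2, 0.0227 without the filter and 0.0155 in the fit of 2 groups. JUN with compound 6 stood at -0.0049 under upper-quartile scaling, -0.0238 under library size and -0.00853 with the block, and FOSL2 with compound 6 at -0.0120 under library size. Without single libraries, JUND ran from -0.18 to 0.30 with compound 4, from -0.26 to 0.23 with compound 5, from -0.33 to 0.20 for compound 5 against 4 and from -0.0397 to 0.43 against 6. FOSL2 and JUN with compound 6 ran from -0.28 to 0.29 and from -0.26 to 0.25. For compound 4 against 6 the ranges were -0.11 to 0.39 for FOSB, -0.38 to 0.42 for FOSL1, -0.0339 to 0.54 for FOSL2, -0.0353 to 0.25 for JUNB, -0.63 to 0.17 for ATF3, -0.88 to 0.33 for EGR1 and -0.0887 to 0.0257 for MYC. Among the members, EGR1 had the highest SE against DMSO (0.38, 0.35 and 0.37 with compounds 4, 5 and 6), and FOSB, with 15 to 74 counts per library, the highest between compounds (0.29 to 0.34).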
